A study of Saccharomyces cerevisiae with 9 samples.

Results

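The small ribosomal subunit protein genes of Saccharomyces cerevisiae are described here in cells that were heated slowly or quickly. Members were the rows whose gene identifier belongs to the set RPS0A to RPS31, which gave 56 of the 7126 features counted. They encode 32 proteins, of which 24 have an A and a B gene copy and 8 have a single gene. RNA was sequenced from BY4742, a haploid MATα laboratory strain that carries his3Δ1, leu2Δ0, lys2Δ0 and ura3Δ0 in every group, after growth for 48 h at 25 °C in YPD. Control cells were not heated. In the heat ramp, cells went from 25 to 50 °C at 0.5 °C per min, and in the heat shock at 50 °C per min. Both treatments were followed by 30 min at 50 °C and a rapid return to 25 °C. Each group had 3 libraries, and each of 3 cultures gave 1 library to every group. The cultures came from 1 strain and were in the stationary phase, not in exponential growth.

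The small subunit binds the mRNA and holds the decoding site of the ribosome. Its proteins are made in equal numbers for assembly, and in growing yeast their genes are transcribed together by RNA polymerase II through the factors Rap1, Fhl1, Ifh1 and Sfp1, under control of the nutrient-sensing TOR pathway. Ribosomal protein mRNAs are known to fall for a time when growing yeast is moved to a higher temperature. Many of these genes keep an intron in a genome with few introns, and most are retained as duplicate copies that encode the same or nearly the same protein.

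Counted reads ranged from 22579312 to 27233289 per library. The 3 deleted marker genes LEU2, LYS2 and URA3 had 0 reads in all 9 libraries, which allows up to 3 reads in each and covers counting error only. MFALPHA1, the alpha factor gene, had 2181 to 25710 reads against 21 to 457 for MFA1, the a factor gene, as the MATα label states. The 100 most abundant features took 22.6 to 22.8% of the reads in control, 55.9 to 57.4% after the heat ramp and 26.0 to 30.6% after the heat shock. Values below are normalized counts, that is reads per gene scaled by a size factor for each library, so a change is relative to the other RNAs of the same library. The total RNA per cell was not measured in these files, and in bulk cultures fewer cells holding an RNA and less RNA per cell cannot be told apart.

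Small subunit protein genes took a smaller part of the reads after the heat ramp and a larger part after the heat shock. Their share was 2.13%, 2.19% and 2.39% in the 3 control libraries. It was 0.680%, 0.722% and 0.691% after the heat ramp and 2.75%, 3.88% and 2.95% after the heat shock. The groups did not overlap, and heat shock replicate 2 was the highest of the 9 libraries. The mean share after the ramp was 0.312 times that of the control, and after the shock 1.43 times. The two-sided exact permutation test gave p = 0.1 in both comparisons, the smallest value that 3 libraries against 3 allow. The 81 large subunit protein genes had a mean share 0.346 times the control after the ramp and 1.34 times after the shock. The 20 genes for mitochondrial small subunit proteins, which serve another ribosome, were at 0.355 times the control after the ramp and 0.672 times after the shock.

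**Figure D1:**
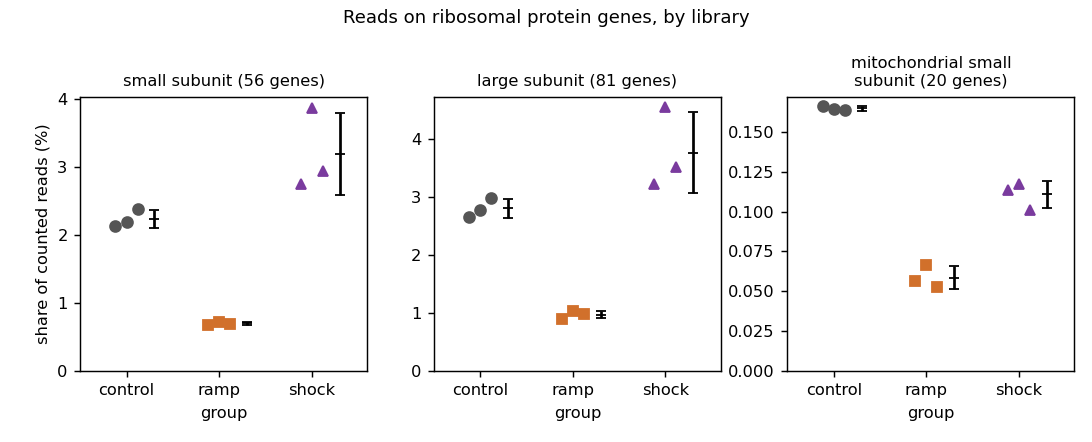
Share of counted reads in percent (y axis) on 3 gene groups in control, heat ramp and heat shock libraries (x axis). Each symbol is 1 library and the bar beside it is the mean with its SD over 3 libraries. Small subunit genes took 2.13 to 2.39% in control, 0.680 to 0.722% after the ramp and 2.75 to 3.88% after the shock.

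After the heat ramp, most small subunit genes were lower than in the control. All 56 members passed the filter on low values. Of these, 46 were lower and 4 were higher by limma's test at an adjusted p under 0.05, where 39.5% of all 6847 features tested were lower and 39.0% were higher. The median log2 fold change of the members was −0.96, against −0.01 over all features tested. Among the 5912 nuclear protein-coding genes fitted alone, the median was −0.20, with 2685 lower and 1970 higher. The members ranged from −2.03 to 1.74, and 27 of the members that fell did so by at least 1 on the log2 scale. The share of all features past that size is not given, in this or the other comparisons. In 47 members the 3 ramp libraries all lay below the 3 control libraries, which was so for 40.8% of all features. Scaling by the total counted reads moved the median of all features by −0.92 in this comparison. Under it 52 members were lower and only RPS14B was higher, and the members' median stood −0.95 from that of all features.

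The lowest member was RPS19A, which encodes a protein of the subunit head. It had normalized counts of 2557, 2698 and 2942 in control, 707, 594 and 706 after the ramp, and 2892, 3757 and 2503 after the shock. The ramp libraries stood well apart, while the shock libraries overlapped the control. The log2 fold change of RPS19A after the ramp was −2.03 ± 0.15 (SE, adjusted p = 2.2e-08). RPS26B, whose protein sits where the mRNA leaves the ribosome, fell by 1.95 ± 0.13 on the log2 scale (adjusted p = 9.0e-09), from 7257 ± 224 (SD, n = 3) in control to 1878 ± 162. RPS1B, for a protein of the platform side of the subunit, fell by 1.75 ± 0.14 on the log2 scale (adjusted p = 5.3e-08), from 11805 ± 459 to 3524 ± 288.

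Against this direction, 4 members rose after the ramp: RPS14B, RPS22B, RPS14A and RPS27B. With total count scaling RPS14B alone stayed higher, RPS22B was 0.21 with no call, and RPS14A and RPS27B turned to −0.21 and −0.29, also with no call. A further 6 members did not pass the test. They included RPS29B at 0.12, RPS21B at 0.06, RPS20 at −0.13, RPS28A at −0.26 and RPS31 at −0.36. RPS31 had an adjusted p of 0.0516, and of 0.0418 with the culture number as a replicate block, and its 3 ramp libraries all lay below the control. It also passed as lower with TMM scaling, total count scaling, the compared groups only, edgeR and DESeq2, and without heat ramp replicate 2, heat shock replicate 1 or heat shock replicate 2 (adjusted p = 3.1e-06 to 0.049).

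After the heat shock most small subunit genes were higher than in the control. Of the 56 members 45 were higher and 0 were lower by limma's test, where 29.9% of all features tested were higher and 27.7% were lower. No member had a log2 fold change below 0, so that 0 were lower at an unadjusted p under 0.05 as well, and with edgeR and DESeq2 on the recovered reads the counts were again 45 and 0. The median was 0.63, against 0.04 over all features, with a range from 0.01 to 1.59, and 9 members rose by at least 1 on the log2 scale. Among the 5912 nuclear protein-coding genes fitted alone, the median was −0.07, with 1429 higher and 1882 lower. In 44 members the shock libraries all lay above the control libraries, as was so for 34.8% of all features. Heat shock replicate 2 was the highest of the 3 shock libraries in 52 members. Without it 35 members were higher and the median was 0.49. Without control replicate 1 or control replicate 2 the count was 37, and with total count scaling it was 33.

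The highest member after the shock was RPS27B, with 3364, 4564 and 4278 in control and 9952, 14652 and 12213 after the shock. Its log2 fold change was 1.59 ± 0.16 (adjusted p = 4.8e-06), a 3.00-fold rise with no overlap between the groups. RPS28B, whose protein in yeast is known to promote the decay of its own mRNA, rose by 1.34 ± 0.14 on the log2 scale (adjusted p = 6.3e-06), from 5422 ± 692 to 13686 ± 1258. RPS22A, for a protein of the subunit body, rose by 1.32 ± 0.16 on the log2 scale (adjusted p = 2.0e-05). The members that changed least were RPS26A at 0.01 ± 0.14 (adjusted p = 0.95), RPS30B at 0.06 ± 0.22 (adjusted p = 0.83) and RPS19A at 0.14 ± 0.15 (adjusted p = 0.44), and their groups overlapped.

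Set directly against each other, the treatments separated almost every member. After the ramp 54 members were lower than after the shock and 2 were higher, where 36.1% and 35.9% of all features were. The median log2 difference was −1.60, and 46 members were lower by at least 1 on the log2 scale. The members highest after the ramp relative to the shock were RPS22B at 0.71 ± 0.14 (adjusted p = 0.00049) and RPS14B at 0.54 ± 0.13 (adjusted p = 0.0017), which with total count scaling stood at −0.034 and −0.21 with no call. The lowest were RPS22A at −2.75 ± 0.16 and RPS27A at −2.57 ± 0.13. By their calls against the shared control, 35 members were lower after the ramp and higher after the shock, and all 35 were also called lower in the direct comparison, a joint pattern found in 6.54% of all features tested. Without heat shock replicate 2 or control replicate 2 the joint count was 26, and without control replicate 1 it was 28. Another 4 members were higher after both treatments, 11 were lower after the ramp with no call after the shock, and 6 were higher after the shock with no call after the ramp. For these smaller patterns the share over all features is not given.

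**Figure D2:**
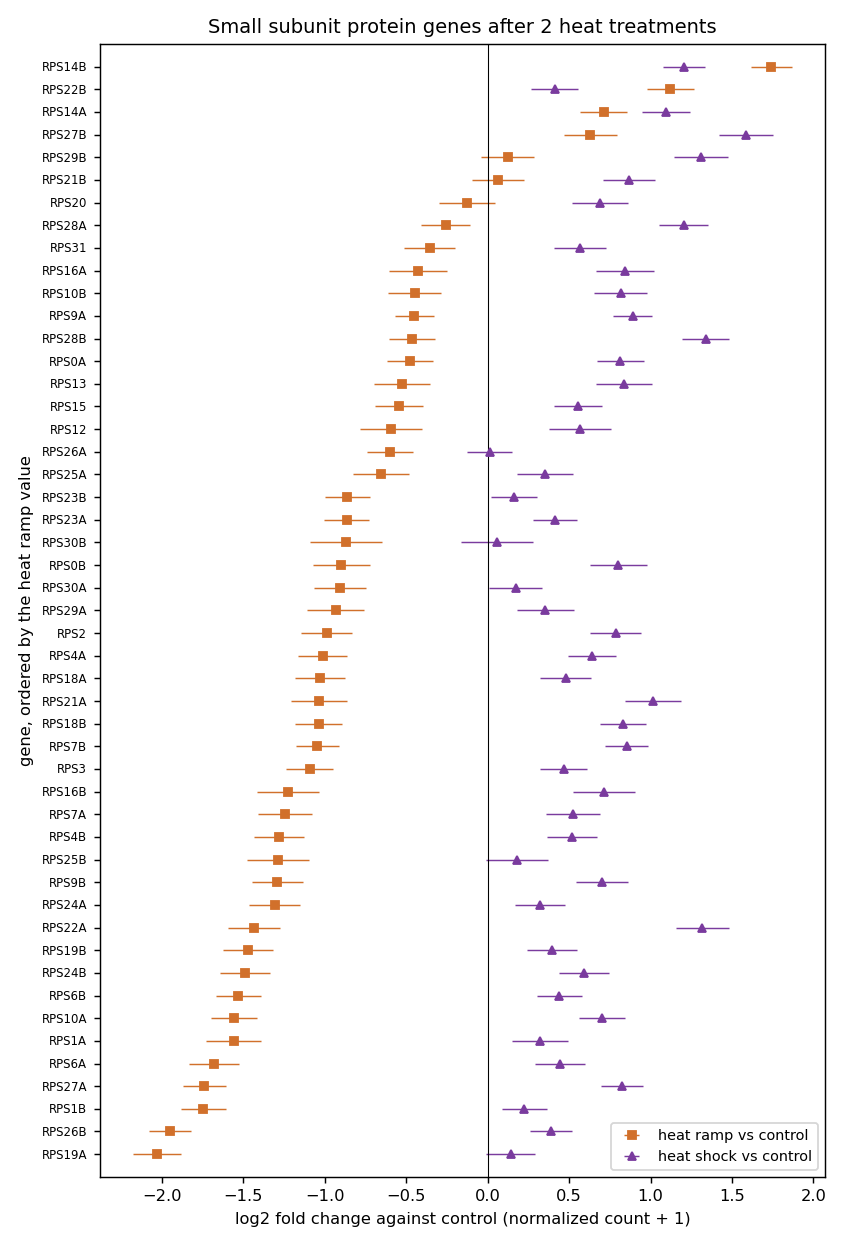
Log2 fold change against control (x axis) of 49 of the small subunit protein genes (y axis, ordered by the ramp value) after the heat ramp (squares) and the heat shock (triangles), with limma standard errors. Ramp values ran from −2.03 for RPS19A to 1.74 for RPS14B, and the shock values were between 0.01 and 1.59.

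By place in the ribosome, the 22 genes for head proteins had a median log2 fold change of −0.77 after the ramp, with 18 lower and 4 that did not pass the test. The 34 genes for the body and platform had a median of −1.02, with 28 lower and 4 higher. Head and body genes were called lower in like proportion, where 39.5% of all features tested were lower and 39.0% higher. After the shock the medians were 0.65 and 0.63. The 8 single-copy genes had a median of −0.57 after the ramp, against −1.02 for the 24 A copies and −1.04 for the 24 B copies, and after the shock 0.58, 0.63 and 0.71.

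The 8 single-copy genes ranged from −1.09 to −0.13 on the log2 scale after the ramp. RPS3, for a protein at the mRNA entry channel, was the lowest of them, at 12696 ± 954 in control, 5948 ± 423 after the ramp and 17679 ± 2954 after the shock. RPS2, at the same channel, had 9195 ± 579, 4659 ± 683 and 16022 ± 3071. These were log2 fold changes of −1.09 and −0.99 after the ramp, each past the test. RPS12, in the beak of the head, had 11480 ± 685, 7731 ± 1814 and 17370 ± 4533. RPS13, a body protein, had 21048 ± 3041, 14508 ± 714 and 37917 ± 8135. RPS15, a head protein near the decoding site, had 13975 ± 1158, 9559 ± 292 and 20736 ± 3719. RPS12, RPS13 and RPS15 fell after the ramp, by 0.53 to 0.59 on the log2 scale, where RPS12 lost its call without heat ramp replicate 1 (adjusted p = 0.060) and RPS13 without control replicate 3 (adjusted p = 0.069). RPS20, a head protein, had 6464 ± 246, 5959 ± 877 and 10679 ± 2906. RPS31, which is made as a fusion to ubiquitin, had 14456 ± 1042, 11346 ± 1586 and 21597 ± 3840. After the shock all 8 genes rose, by 0.47 to 0.84 on the log2 scale. There the calls for RPS3 and RPS12 were lost without heat shock replicate 2 (adjusted p = 0.055 and 0.10) and without control replicate 1 (adjusted p = 0.052 and 0.060), and that for RPS12 without control replicate 2 (adjusted p = 0.065). With total count scaling RPS3, RPS12 and RPS31 had no call after the shock (adjusted p = 0.11, 0.091 and 0.054).

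An intron is annotated in 36 members and none in 20. Genes with an intron had a median log2 fold change of −1.02 after the ramp and 0.71 after the shock, and genes without one −0.91 and 0.56. The 4 members that rose after the ramp all carry an intron, and 30 other genes with an intron fell. Of the 20 without one, 16 fell and 0 rose. Over all features tested, 39.5% were lower and 39.0% higher. The introns are 256 to 551 bases long. Of the 36, 24 begin with GTATGT, 9 with GTACGT and 3 with GTATGA, and 33 hold the branch sequence TACTAAC. Members with GTATGT had a median of −1.02 after the ramp and those with GTACGT −0.91. A count per gene does not tell spliced from unspliced RNA, and whether reads in introns were counted is not given in the sources used here.

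The splice sites of RPS14A, RPS14B and RPS22B are shown because these genes moved against the others. Introns of RPS14B and RPS22B are also known points of control in yeast. Rps14 protein in excess binds the RPS14B transcript and blocks its splicing, and RPS22B carries an intron in its untranslated leader, not listed in the annotation used here, where the RNase Rnt1 cuts unspliced RNA. The RPS22B pieces below are from the annotated intron within the coding sequence, not from the leader intron. Sequences are from the RefSeq R64 assembly, read 5′ to 3′ on the gene strand. Capitals mark the 6 first bases of the intron in the 5′ pieces, and the branch sequence and the 3 last bases of the intron in the 3′ pieces.
RPS14A 5′ site, chrIII:178190-178223, minus strand: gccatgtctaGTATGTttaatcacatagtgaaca
RPS14B 5′ site, chrX:73787-73820, plus strand: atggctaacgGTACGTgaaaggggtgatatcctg
RPS22B 5′ site, chrXII:856565-856598, plus strand: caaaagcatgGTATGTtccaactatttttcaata
RPS14A 3′ site, chrIII:177897-177967, minus strand: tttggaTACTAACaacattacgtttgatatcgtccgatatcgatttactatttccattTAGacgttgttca
RPS14B 3′ site, chrX:74168-74214, plus strand: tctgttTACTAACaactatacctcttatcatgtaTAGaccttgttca
RPS22B 3′ site, chrXII:857028-857067, plus strand: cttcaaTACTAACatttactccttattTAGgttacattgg
RPS14B begins its intron with GTACGT and RPS14A with GTATGT. The branch sequence is followed by 48 bases up to the intron end in RPS14A, by 24 in RPS14B and by 17 in RPS22B.

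RPS14A (YCR031C, chromosome III, 177500 to 178220, R64) and RPS14B (YJL191W, chromosome X, 73787 to 74611) encode a protein of the subunit platform that is needed for the last cut of the 18S rRNA precursor. RPS14B had 1898, 1954 and 2188 normalized counts in control, 7591, 6290 and 6357 after the ramp, and 4131, 5078 and 4749 after the shock. The 3 groups did not overlap, and the ramp libraries were the highest. Its log2 fold change was 1.74 ± 0.13 after the ramp (adjusted p = 2.1e-08) and 1.21 ± 0.13 after the shock (adjusted p = 5.5e-06). RPS14A had 8607, 9580 and 10049 in control, 17080, 14314 and 14879 after the ramp, and 17267, 23398 and 19927 after the shock. It was higher after both treatments, by 0.71 ± 0.15 (adjusted p = 0.00050) and 1.09 ± 0.15 (adjusted p = 4.1e-05), the first of which turned to −0.21 with total count scaling. The direct difference between the treatments, −0.38 ± 0.15 in RPS14A (adjusted p = 0.031), lost its call without heat ramp replicate 2 or 3 or heat shock replicate 2 or 3 (adjusted p = 0.059 to 0.12). The A copy was 4.53 to 4.90 times the B copy in control, 2.25 to 2.34 times after the ramp and 4.18 to 4.61 times after the shock. RPS14B lies 298 bases from RPS22A on chromosome X with the gene ends facing each other, and the annotated genes do not overlap. Whether reads were counted by strand is not given in the sources used here.

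RPS22A (YJL190C, chromosome X, 74910 to 75302) and RPS22B (YLR367W, chromosome XII, 856442 to 857317) had the largest change in copy balance after the ramp of the 24 pairs. RPS22A had 7770, 8806 and 9808 in control, 3492, 3234 and 3008 after the ramp, and 16844, 25703 and 24041 after the shock. RPS22A was low after the ramp and high after the shock in all libraries, at −1.43 ± 0.16 (adjusted p = 1.8e-06) and 1.32 ± 0.16. RPS22B had 748, 745 and 787 in control, 1799, 1345 and 1869 after the ramp, and 1154, 981 and 912 after the shock. Its log2 fold change was 1.12 ± 0.14 after the ramp (adjusted p = 6.5e-06) and 0.41 ± 0.14 after the shock (adjusted p = 0.025). The shock call for RPS22B was lost without any 1 of the control libraries or heat shock replicate 1 (adjusted p = 0.051 to 0.11) and with total count scaling. The RPS22 A copy was 10.4 to 12.4 times the B copy in control, 1.61 to 2.40 times after the ramp and 14.6 to 26.3 times after the shock. The log2 ratio changed by −2.56 ± 0.23 after the ramp (adjusted p = 1.1e-05) and by 0.91 ± 0.23 after the shock (adjusted p = 0.020). The shock change in RPS22 balance was lost without control replicate 1, 2 or 3 or heat shock replicate 2 or 3 (adjusted p = 0.051 to 0.076).

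The intron of RPS22B holds snR44, a small nucleolar RNA that guides pseudouridine formation and whose mature form has no poly(A) tail. snR44 had 353, 369 and 328 normalized counts in control, 3866, 3654 and 2733 after the ramp, and 937, 678 and 757 after the shock. These were log2 fold changes of 3.27 ± 0.16 (adjusted p = 5.1e-10) and 1.16 ± 0.16 (adjusted p = 4.1e-05), so snR44 and RPS22B moved in one direction after the ramp. Of all 6847 features tested, 2670 were higher and 2705 lower after the ramp. Of the 5912 nuclear protein-coding genes fitted alone, 1970 were higher and 2685 lower. Features outside that set, snR44 among them, were thus mostly called higher, and a link between snR44 and RPS22B was not tested. The part of snR44 reads in the RPS22B counts was not tested.

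RPS27A (YKL156W, chromosome XI, 158613 to 159212) and RPS27B (YHR021C, chromosome VIII, 147871 to 148669) encode a zinc-binding protein of the subunit body. The copies had overlapping levels in control, with 4158, 4522 and 4827 for RPS27A and 3364, 4564 and 4278 for RPS27B. After the ramp RPS27A had 1401, 1280 and 1357, and RPS27B had 6824, 5478 and 6524. RPS27A fell by 1.74 ± 0.13 on the log2 scale (adjusted p = 2.8e-08) and RPS27B rose by 0.63 ± 0.16 (adjusted p = 0.0028), which with total count scaling was −0.29. The RPS27 A to B ratio was 0.991 to 1.24 in control, 0.205 to 0.234 after the ramp and 0.641 to 0.689 after the shock. Its log2 change was −2.37 ± 0.09 (adjusted p = 8.7e-08) after the ramp and −0.76 ± 0.09 (adjusted p = 0.00037) after the shock. Both introns start with GTATGT, as the 5′ pieces show, where capitals mark the 6 first intron bases and the first exon ends with the start codon.
RPS27A 5′ site, chrXI:158606-158639, plus strand: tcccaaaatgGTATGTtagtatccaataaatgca
RPS27B 5′ site, chrVIII:148643-148676, minus strand: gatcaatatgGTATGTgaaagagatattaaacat
A 50-base read can be placed on 1 copy only where its sequence occurs once in the genome, which held for 100% of the 50-base stretches of RPS22 and RPS27 and for 88.0% in RPS14. These shares count exact stretches of full length. The paper trimmed its reads and aligned them in local mode, and the placing of shorter reads was not tested.

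The balance between copies changed in many pairs after the ramp and in few after the shock. In each comparison the small subunit pairs stood close to the share over all pairs fitted. Tested on the log2 A to B ratio over all 61 pairs of yeast genes named A and B that were fitted, 18 of the 24 small subunit pairs changed after the ramp, where 75.4% of all pairs did. Of the 18, 9 moved toward the A copy and 9 toward the B copy. After the shock 6 of the 24 changed, where 26.2% of all pairs did. Between the treatments 20 of the 24 differed, where 80.3% of all pairs did. The 61 pairs are the 24 small subunit pairs, 35 large subunit pairs and 2 others, COX5 and NHP6, so that these shares describe ribosomal protein genes and not paralogs at large. In 17 pairs both copies fell after the ramp, in 1 pair both rose (RPS14), in 2 the copies moved in opposite directions (RPS22 and RPS27), and in 4 only 1 copy passed the test. The median size of the log2 change of the ratio was 0.60 after the ramp and 0.18 after the shock, and 9 pairs moved by at least 1 after the ramp and 0 after the shock. Without control replicate 1 or heat shock replicate 3 the count after the shock was 3, and without control replicate 2 or control replicate 3 it was 2.

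RPS10, for a head protein near the mRNA entry, went from an uneven to an even balance after the ramp. RPS10A had 6343, 6229 and 6838 in control, 2334, 1940 and 2338 after the ramp, and 9264, 12863 and 9754 after the shock. RPS10B had 2905, 3267 and 3234 in control, 2292, 2113 and 2497 after the ramp, and 4694, 7467 and 4798 after the shock. Both copies fell after the ramp with no overlap with the control, the A copy further, and the call for RPS10B was lost without control replicate 2 or 3 or heat ramp replicate 2 (adjusted p = 0.056 to 0.063). The RPS10 A to B ratio was 1.91 to 2.18 in control, 0.918 to 1.02 after the ramp and 1.72 to 2.03 after the shock, and its log2 change after the ramp was −1.11 ± 0.08 (adjusted p = 3.7e-06).

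RPS26 moved the other way. RPS26A (chromosome VII, 148229 to 148588) had 7677, 8143 and 8906 in control, 5740, 5855 and 4765 after the ramp, and 7666, 9844 and 7561 after the shock. RPS26B (chromosome V, 423952 to 424311) had 7174, 7086 and 7510 in control, 1777, 2066 and 1792 after the ramp, and 8693, 11293 and 8756 after the shock. Both copies fell after the ramp, the B copy further, and the RPS26 A to B ratio rose from 1.07 to 1.19 in control to 2.66 to 3.23, a log2 change of 1.35 ± 0.08 (adjusted p = 5.9e-07). After the shock it was 0.864 to 0.882, a log2 change of −0.38 ± 0.08 (adjusted p = 0.0078), so that the B copy was the more abundant in all 3 shock libraries. The rise of RPS26B alone after the shock, 0.39 ± 0.13 (adjusted p = 0.020), lost its call without control replicate 1 or 2 or heat shock replicate 2 (adjusted p = 0.055 to 0.094) and with total count scaling (0.22, adjusted p = 0.21).

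RPS29 encodes a short zinc-binding head protein. RPS29A (chromosome XII, 898651 to 898821) had 1056, 1129 and 1119 in control, 487, 551 and 711 after the ramp, and 1375, 1797 and 1128 after the shock. RPS29B (chromosome IV, 340628 to 340798) had 6387, 7034 and 6893 in control, 8572, 7641 and 6097 after the ramp, and 13587, 17356 and 20035 after the shock. The RPS29 A to B ratio was 0.161 to 0.165 in control, 0.0569 to 0.117 after the ramp and 0.0564 to 0.104 after the shock. Its log2 change was −1.06 ± 0.29 after the ramp (adjusted p = 0.0087) and −0.96 ± 0.29 after the shock (adjusted p = 0.038). The shock change was lost with the culture number as a replicate block (adjusted p = 0.071) and without any 1 of the control libraries or heat shock replicate 3 (adjusted p = 0.088 to 0.12).

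**Figure D3:**
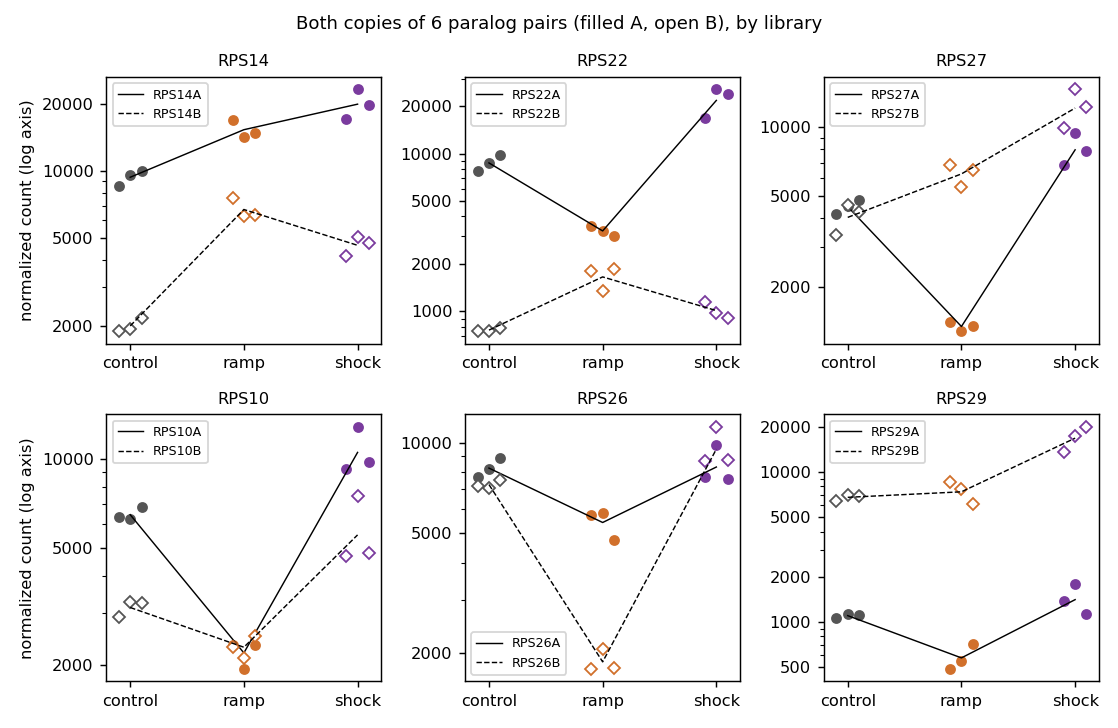
Normalized counts (log y axis) of the A copy (filled circles, solid line) and the B copy (open diamonds, dashed line) of 6 pairs in control, heat ramp and heat shock libraries. Each symbol is 1 library and the lines join the geometric means of the groups. RPS14B rose from 1898 to 2188 in control to 6290 to 7591 after the ramp, while RPS22A and RPS27A fell.

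Other pairs with a log2 change of at least 1 after the ramp included RPS21 at −1.10 and RPS14 at −1.03. RPS9, for a body protein, moved by 0.84. The block changed the call in 3 further pairs. RPS1 after the ramp, 0.19, went from an adjusted p of 0.052 to 0.043. RPS28 after the ramp, 0.21, went from 0.035 to 0.060, and RPS23 after the shock, 0.25, went from 0.035 to 0.063. In some pairs a read can often come from either copy: of 50-base stretches, 27.3% were unique in RPS6, 52.3% in RPS4 and 61.5% in RPS24. The split between copies is uncertain in these pairs.

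**Figure D4:**
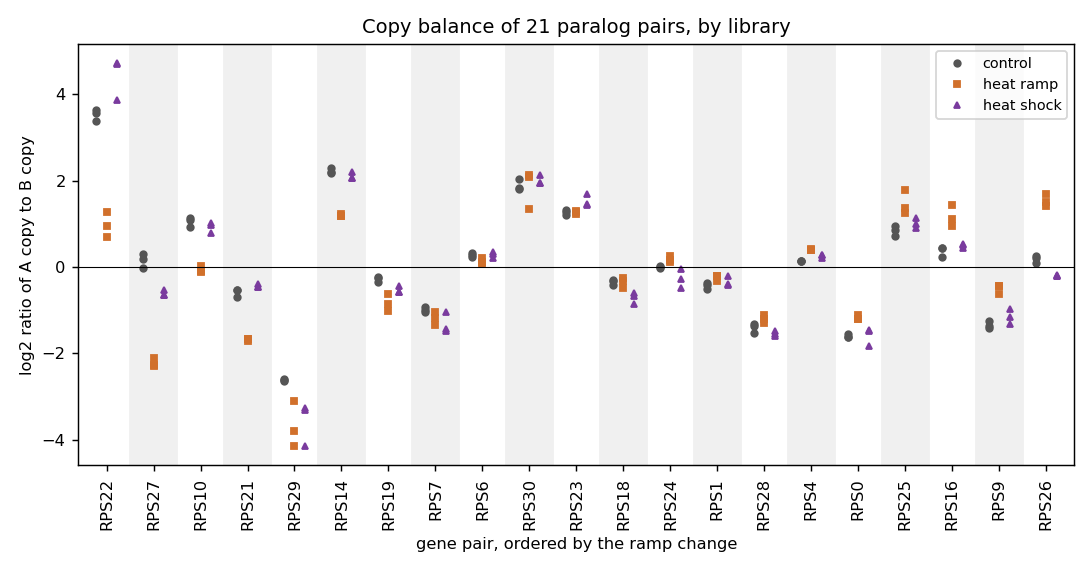
Log2 ratio of the A copy to the B copy (y axis) of 21 of the pairs (x axis, ordered by the change after the ramp), with 1 symbol for each library. RPS22 and RPS27 moved furthest toward the B copy after the ramp, by −2.56 and −2.37, and RPS26 furthest toward the A copy, by 1.35.

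With both copies summed, mRNA levels per protein were compared as normalized counts per kb of coding length, since the annotated lengths of all 56 members are multiples of 3 and hold no untranslated parts. In control RPS2 was among the lowest, at 12020 ± 757, and RPS30 was the highest, at 89895 ± 7016. RPS0 at 49214 ± 5826, RPS23 at 47804 ± 2733, RPS13 at 46158 ± 6669 and RPS29 at 46041 ± 2222 came next and did not differ beyond their spread. Whether reads in untranslated parts were counted is not given in the sources used here. After the ramp the range was 12.5-fold, from RPS19 at 4277 ± 256 to RPS14 at 53434 ± 5273, and after the shock 6.28-fold, from RPS19 at 17168 ± 3842 to RPS29 at 107754 ± 18503. The coefficient of variation over the 32 proteins was 49.5 to 51.5% in the control libraries, 62.8 to 71.8% in the ramp libraries and 45.4 to 54.6% in the shock libraries.

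RPS14 was the only protein whose summed normalized counts lay above the control in all ramp libraries. Its log2 difference was 0.95, where total count scaling moved the median of all features by −0.92 in this comparison. The summed levels were not computed under that scaling. For 27 of the 32 proteins the summed counts lay below the control, where 40.8% of all features tested singly did. For RPS20, RPS21, RPS27 and RPS29 they overlapped. In RPS27 the fall of one copy and the rise of the other left the summed level per kb at 34421 ± 3649 in control and 30608 ± 3083 after the ramp. After the shock 27 of the 32 lay above the control, where 34.8% of all features tested singly did. The 5 that overlapped it were RPS1, RPS19, RPS25, RPS26 and RPS30. The 5 proteins with the highest summed log2 difference after the shock were RPS28 at 1.30, RPS22 at 1.27, RPS27 at 1.23, RPS29 at 1.21 and RPS14 at 1.11.

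**Figure D5:**
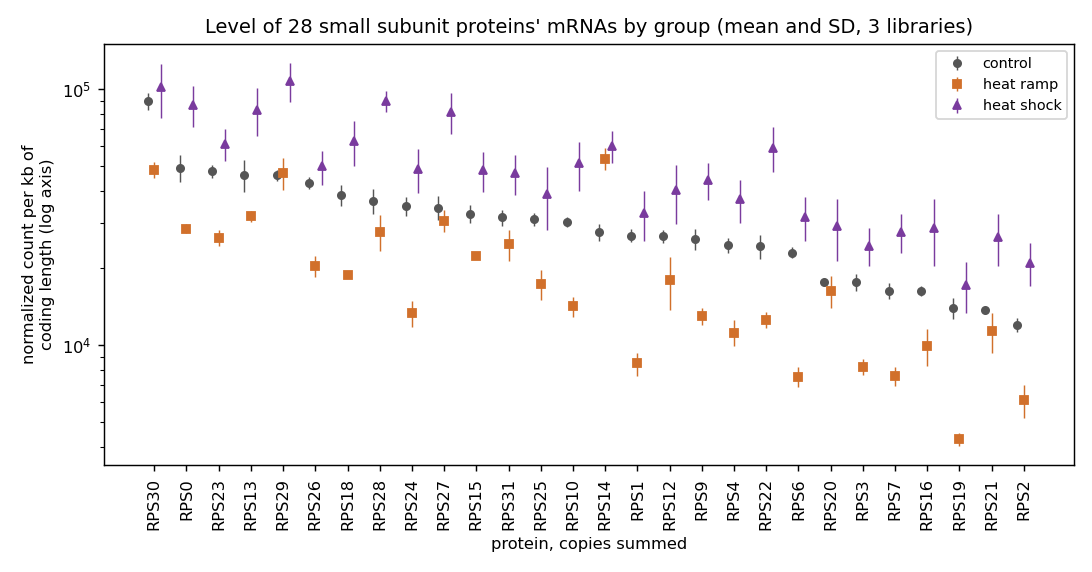
Normalized counts per kb of coding length (log y axis) for 28 of the proteins with copies summed (x axis, ordered by the control level), as the mean and SD of 3 libraries in control (circles), heat ramp (squares) and heat shock (triangles). With the deposited size factors RPS14 rose from 27561 to 53434 after the ramp, while most other proteins fell.

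Upstream of the genes, 6 short motifs were counted on both strands in the 300 bases from 450 to 151 before the start codon, with no overlap filter between motifs. The Rap1 motif ACCCNNACA was found in 14 of the 56 members, or 25.0%, and in 3.72% of all 6000 genes searched. GACGCA, linked to Fhl1, was found in 7.14% of members and 7.08% of genes. The stress element AGGGG was in 17.9% and 23.4%, and the heat shock element GAANNTTC in 17.9% and 12.0%. GATGAG, the core of the PAC motif, was in 12.5% and 17.4%, and AAAATTTT, the core of RRPE, in 5.36% and 6.72%. The 14 members with a Rap1 match had a median log2 fold change of −1.11 after the ramp and 0.73 after the shock, and the other 42 had −0.92 and 0.60.

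More than 1 Rap1 match was found in both copies of RPS16, a head protein pair, and these stretches are shown as examples of the motif. RPS16A had 3667, 3961 and 4226 in control and 2716, 2678 and 3464 after the ramp, and RPS16B had 3106, 2934 and 3141 in control and 1400, 998 and 1601. Capitals mark the motif on either strand.
RPS16A, chrXIII:551520-551639, plus strand: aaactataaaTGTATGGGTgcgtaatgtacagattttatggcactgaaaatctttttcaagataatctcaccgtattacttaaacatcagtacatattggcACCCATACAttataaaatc
RPS16B, chrIV:308133-308224, minus strand: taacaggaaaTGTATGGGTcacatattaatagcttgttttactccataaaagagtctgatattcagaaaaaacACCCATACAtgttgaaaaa
The RPS16 copies share the same number of matches, and the log2 A to B ratio of RPS16 changed by 0.80 ± 0.11 after the ramp (adjusted p = 0.00022).

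Genes that work with the small subunit proteins were compared as lists. Every count below stands against all features tested, of which 39.5% were lower and 39.0% higher after the ramp. After the shock 27.7% of them were lower and 29.9% higher. Of the 81 large subunit genes 62 were lower and 5 higher after the ramp, with a median of −0.91, and 60 were higher and 1 lower after the shock, with a median of 0.60. All 12 genes found for late assembly of the small subunit were lower after the ramp, with a median of −2.12, and after the shock 2 were lower and 10 did not pass the test, with a median of −0.12. NOB1, the nuclease that makes the final cut of the 18S rRNA, was at −2.77 after the ramp. TSR1, an assembly factor related to translational GTPases, was at −2.72, ENP1, a component of the precursor particle, at −2.48 and RRP12, an export factor, at −2.44.

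Among the 4 carriers that hold single proteins until assembly, 3 were lower after the ramp and 1 was higher, where 39.5% and 39.0% of all features were. TSR2, the carrier of Rps26, was at −2.10 ± 0.19. TSR4, the carrier of Rps2, was at −1.73 ± 0.18 and FAP7, which binds Rps14, at −1.45 ± 0.14. YAR1, the carrier of Rps3, was at 0.90 ± 0.24 (adjusted p = 0.0032), with 11659 ± 676 normalized counts in control and 21926 ± 2877 after the ramp. Total count scaling moved the median of all features by −0.92 in this comparison, slightly more in size than the YAR1 rise. YAR1 was not examined under that scaling. All 5 genes for enzymes and partners that modify small subunit proteins were lower after the ramp, with a median of −1.34. After the shock their values ran from 0.02 to 0.17 with no call. SFM1, which methylates Rps3, was at −1.71, and TPA1, which hydroxylates Rps23, at −1.67.

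Of the 12 regulators of ribosomal protein genes, 4 were lower and 3 higher after the ramp, with a median of −0.22, where 39.5% and 39.0% of all features were, and 3 were lower and 2 higher after the shock, with a median of −0.00. IFH1, the coactivator that binds Fhl1, fell by 1.87 ± 0.15 on the log2 scale after the ramp (adjusted p = 6.1e-08), TOD6, a repressor of ribosome synthesis genes, by 1.53 ± 0.16, and SCH9, a kinase under TOR, by 1.00 ± 0.12. TOR1, the kinase subunit itself, was at 0.80 ± 0.13, the highest of the 12. That is smaller in size than the −0.92 by which total count scaling moved the median of all features. FHL1 was lower after both treatments, at −0.78 ± 0.19 and −0.69 ± 0.19, and RAP1 passed the test after neither. Of the ribosome-bound partners, ASC1, a scaffold on the head, was at 0.37 ± 0.18 after the ramp (adjusted p = 0.066) and rose by 0.79 ± 0.18 after the shock, and STM1, which clamps idle ribosomes, was at −1.31 ± 0.15 and −0.32 ± 0.15, the second with no call. Of the 20 mitochondrial small subunit genes, 16 were lower and 3 higher after the ramp, and 14 were lower and 1 higher after the shock, with medians of −0.63 and −0.54.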

How the data were processed

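RNA-seq was analysed in 9 libraries of BY4742 (3 control, 3 heat ramp, 3 heat shock). The authors made libraries from poly(A)+ RNA, trimmed reads with Trimmomatic, aligned them to SacCer3 with Bowtie2 and normalized with DESeq2, per the submitters' processing notes and the study's methods. The counting tool, annotation and strandedness are not given in the sources used here. The deposited values are a signal per feature, reads divided by the library's size factor. In every library 100% of values were whole reads, within 0.1 read, once the size factor was recovered. The deposited tables also hold the authors' fold changes and p-values, which were not used.

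Values were analysed as log2(normalized count + 1), since the deposited signal is not a raw count. Features with a mean of at least 10 were kept (6847 of 7126), and 1 limma model (version 3.58.1, trended prior, R 4.3.3) with the group as its only factor gave 3 comparisons, with two-sided tests and Benjamini-Hochberg adjustment over all features, at 0.05. The A to B ratios of 61 pairs were fitted in the same way. The fit was tested on simulated data. Errors are SDs over 3 libraries for levels and limma standard errors for fold changes. Fold changes on the log2(value + 1) scale understate changes of low genes.

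The study's supplement states that each of 3 cultures gave all 3 samples, so the replicate numbers pair the libraries. Deviations from the group means of same-numbered libraries had correlations of 0.03, −0.20 and −0.01 (control and ramp), 0.29, 0.04 and 0.05 (control and shock) and −0.05, −0.05 and 0.01 (ramp and shock). Depth was at least 22579312 counted reads, and a count of 0 allows up to 3 reads. Coordinates are from the RefSeq R64 annotation, the assembly also named SacCer3, which placed 6048 of the identifiers.

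Members named were the 3 highest and 3 lowest in each comparison, those called against the majority, the 4 pairs with the widest copy change per treatment, both RPS14 and RPS22 copies and the 8 single-copy genes, with up to 4 genes of largest change past the threshold in each list. The members that did not pass the test after the ramp, RPS9, RPS10, RPS16, RPS21, the pairs whose call the block changed, FHL1, RAP1 and snR44 were added after their values were seen, as were the proteins singled out in the summed levels. The members and lists were chosen with earlier results of these data known. The alternatives were other pseudocounts (0.1 and 5), no filter, TMM and total count scaling, protein-coding genes only, the compared groups only, the replicate block, edgeR 4.0.16 and DESeq2 1.42.0 on the recovered counts, a fold threshold, each library left out, and genes with at least 50% unique 50-base stretches. Some members that this rule names are not reported here and are left out of the plots, but they stay in every fit, count and median.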

Additional observations from a re-analysis of the deposited data

Results flagged for a closer look

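In 35 of the 56 small subunit protein genes the treatments moved the level in opposite directions against the control, lower after the heat ramp and higher after the heat shock, and the direct limma comparison of the treatments called all 35 lower after the ramp. The same joint pattern was found in 6.54% of the 6847 features tested. Both comparisons with the control share the same 3 control libraries. Heat shock replicate 2, the highest shock library in 52 members, and the larger share of reads on the 100 most abundant features after the ramp, 55.9 to 57.4%, stand beside this pattern, and their part in it was not tested. Without heat shock replicate 2 the joint pattern was found in 26 members, with total count scaling in 30.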

How the results depend on the processing

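The direction of the members' median did not turn under the alternatives tried. With total count scaling the members had a median of −1.88 after the ramp and −2.34 between ramp and shock, 1 member was higher after the ramp and 0 were higher after the ramp than after the shock. That scaling moved the median of all features by −0.92, −0.17 and −0.74 in the 3 comparisons. With TMM scaling the medians were −1.05 and −1.65, with edgeR −1.02 and −1.65, and with only mostly unique members −0.90 and −1.50. With a log2 fold change of at least 1, 2 members were higher and 27 lower after the ramp, 9 were higher after the shock and 0 were higher after the ramp than after the shock. The share of all features past that size is not given. With 1 library left out, members lower after the ramp numbered 42 to 47, members higher after the shock 35 to 47 and members lower after the ramp than after the shock 53 to 54. The medians were then −1.03 to −0.89, 0.49 to 0.74 and −1.65 to −1.46. The members lower after the ramp, higher after the shock and lower in the direct comparison, a count added after seeing the data, numbered 26 to 37, against 30 to 36 under the other alternatives. Changed pairs numbered 16 to 19 after the ramp, 2 to 8 after the shock and 18 to 19 between treatments.

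Among named members, 4 calls turned direction with total count scaling and lost their call: RPS14A at −0.21 and RPS27B at −0.29 after the ramp, and RPS14B at −0.21 and RPS22B at −0.034 between treatments. RPS20 and RPS31 gained a call as lower after the ramp, at −1.04 and −1.27. The cause was not tested. The replicate block gave 47 members lower after the ramp, where RPS31 passed (adjusted p = 0.0418), and changed the call of the RPS1 and RPS28 ratios after the ramp and of the RPS23 and RPS29 ratios after the shock. It changed no other call among the members and their pairs. The genes of the lists and snR44 were not examined with the block. With 3 libraries a group, an exact test of 1 value cannot pass 0.05. Depth did not limit the members, which all passed the filter on low values. For RNA integrity the paper states only an upper bound shared by all samples. The part of RNA quality in these comparisons was not tested.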
